A study of Mus musculus with 5 samples.

Results

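Autosomal promoter shores are the CpGs of chromosomes 1 to 19 that lie more than 1000 and up to 2000 bp from the nearest start site of a protein-coding transcript. They were chosen by distance from the start site alone, so they include positions inside CpG islands, and a position was kept on an allele when every library had more than 20 methylation calls there. This gave 4528 positions on the domesticus allele, 1273 upstream and 3255 downstream of the start site, of 125501 autosomal positions that passed the same minimum. On the castaneus allele it gave 4950 positions, 1357 upstream and 3593 downstream, of 130960. With the X included, 127760 and 132596 positions passed. The shores lay near 401 genes upstream and 748 downstream on the domesticus allele, and near 425 and 778 on the castaneus allele. A position is the cytosine of a CpG on 1 strand, so a CpG read on both strands gives 2 positions.

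The assay for DNA methylation (mC), eRRBS, reads short bisulphite-converted restriction fragments, which are rich in CpGs. Its samples were MEFs, fibroblasts grown from female mouse embryos at E13.5, from dams of 129/C57 stock, the domesticus genome, and castaneus (CAST) sires, so that reads over strain differences name their parental allele. All carried the Xist deltaA deletion (Xist deltaA/+). The Female control group (n = 3) was Setdb1+/+ with a nonsilencing hairpin, and the Setdb1 depleted group (n = 2) was Setdb1+/gt, heterozygous for a gene trap, with the hairpin shSetdb1. Genotype and hairpin therefore differed together and cannot be told apart, and bisulphite reads give no level of Setdb1, which the study measured in such cells by qRT-PCR, not analysed here. Each library held 9440874 to 10558931 calls per allele, from the same 4 lanes of 1 flowcell. The 9 covered positions of the island at Zrsr1, a gene methylated on the maternal copy, had 92.6 to 97.8% mC on the domesticus allele and 0.712 to 5.54% on the other, which matches the labelled parents. Whether the cells were fibroblasts cannot be read from DNA methylation at shores.

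CpG islands are stretches of dense CpGs that cover most mammalian promoters and are usually free of methylation, while most other CpGs of the genome are methylated. The name shore is often used for the sequence that flanks an island, but here it stands for the distance from a start site only, inside an island or not. Setdb1 trimethylates lysine 9 of histone H3 (H3K9me3), is brought to many of its targets by KRAB zinc finger proteins through Trim28, and acts in the silencing of endogenous retroviruses, where H3K9me3 and DNA methylation often occur together.

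The 10 stretches below show what a shore looks like at sequence level. They are the shore windows described most closely further on: 4 with a small p in the depletion comparison (Zfp809, Scarf2, Tbx5, Hes2), those at the lower and upper end of mC on each side (Bahcc1 and Prex1 upstream, Gtpbp3 and Zfp408 downstream), and 2 that differed between the alleles in an added test (Tdrd6, C1ql3). Each is the plus strand of mm10, 5′ to 3′, read from the GRCm38 reference and not from the libraries. Capitals mark the CpGs whose calls were used. Their places are chr9:22226818-22226925 for Zfp809 (intron), chr16:17803367-17803439 for Scarf2 (coding exon), chr5:119837418-119837472 for Tbx5 (intron), chr4:152159996-152160054 for Hes2 (intron), chr11:120231112-120231363 for Bahcc1 (exon of the noncoding 2900052L18Rik), chr2:166583136-166583206 for Prex1 (coding exon), chr8:71489145-71489275 for Gtpbp3 (coding exon), chr2:91647980-91648009 for Zfp408 (intron), chr17:43628996-43629153 for Tdrd6 (coding exon) and chr2:13009993-13010054 for C1ql3 (exon of the noncoding Gm37811).
Zfp809: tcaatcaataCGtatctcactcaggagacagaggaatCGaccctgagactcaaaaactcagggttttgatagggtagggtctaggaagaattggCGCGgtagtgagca
Scarf2: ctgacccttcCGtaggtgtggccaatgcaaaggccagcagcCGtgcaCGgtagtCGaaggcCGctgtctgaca
Tbx5: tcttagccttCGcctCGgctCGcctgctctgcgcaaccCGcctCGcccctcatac
Hes2: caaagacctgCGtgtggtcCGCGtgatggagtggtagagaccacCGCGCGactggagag
Bahcc1: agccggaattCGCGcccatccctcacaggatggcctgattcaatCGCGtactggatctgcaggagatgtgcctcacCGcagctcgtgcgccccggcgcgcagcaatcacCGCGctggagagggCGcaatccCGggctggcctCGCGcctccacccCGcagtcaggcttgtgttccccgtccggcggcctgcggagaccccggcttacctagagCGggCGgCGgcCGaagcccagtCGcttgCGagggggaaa
Prex1: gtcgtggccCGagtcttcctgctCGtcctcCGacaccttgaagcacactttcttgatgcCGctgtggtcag
Gtpbp3: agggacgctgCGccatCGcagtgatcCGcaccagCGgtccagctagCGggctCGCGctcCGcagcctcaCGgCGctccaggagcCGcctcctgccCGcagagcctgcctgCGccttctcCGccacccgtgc
Zfp408: ccaagcagagCGtgtgCGCGcactagtttt
Tdrd6: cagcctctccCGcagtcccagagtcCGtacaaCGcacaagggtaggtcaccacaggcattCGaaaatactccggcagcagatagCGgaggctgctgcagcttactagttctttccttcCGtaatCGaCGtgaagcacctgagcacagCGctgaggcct
C1ql3: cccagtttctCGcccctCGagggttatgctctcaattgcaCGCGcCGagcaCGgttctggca
The stretches at Bahcc1 and Gtpbp3 were almost unmethylated and dense in CpGs. The run at Bahcc1 holds 29 CpGs in 252 bases and that at Gtpbp3 holds 16 in 131, with 74.0% G and C, and no measured position in either had a mean over the libraries above 1.30% mC, the highest value in a single library being 5.95% at Gtpbp3. The run at Prex1 holds 5 CpGs in 71 bases, with mC from 93.9 to 99.5% at its 4 measured positions. Zfp809 has the sparsest run, with 4 CpGs in 108 bases and 47.2% G and C, and its measured positions had a mean mC of 40.7 to 53.4% over the libraries.

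Shores held intermediate mean mC between an almost unmethylated promoter core and the more methylated surroundings, and upstream shores were more methylated than downstream ones. On the domesticus allele, upstream shores had 38.6, 38.5 and 38.3% mC in the 3 control libraries and 38.5 and 38.1% in the depleted ones, and downstream shores had 23.9, 23.9, 24.0, 23.9 and 23.7% in the same order. On the castaneus allele the values were 34.2, 34.3, 34.1, 34.1 and 34.3% upstream and 22.5, 22.6, 22.3, 22.6 and 22.7% downstream. The 5 libraries thus differed by less than 1 point in each of these classes. The core, 0 to 1000 bp from a start site, had 2.91 to 3.06% mC on the domesticus allele and 2.86 to 2.98% on the castaneus.

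Each step outward from the core was larger than the spread between libraries and had the same direction in all 5. Upstream shores lay 35.4 points above the core on the domesticus allele (35.1 to 35.6 over libraries) and 31.3 points on the castaneus allele, and downstream shores 20.9 and 19.6 points. Positions beyond the shore, up to 5000 bp upstream, lay a further 9.65 and 10.9 points above the upstream shores, and those downstream 25.8 points (domesticus) and 25.7 points (castaneus) above the downstream shores. For each of these steps the two-sided exact sign-flip permutation test over libraries gave p = 0.06, the smallest that 5 libraries allow.

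**Figure D1:**
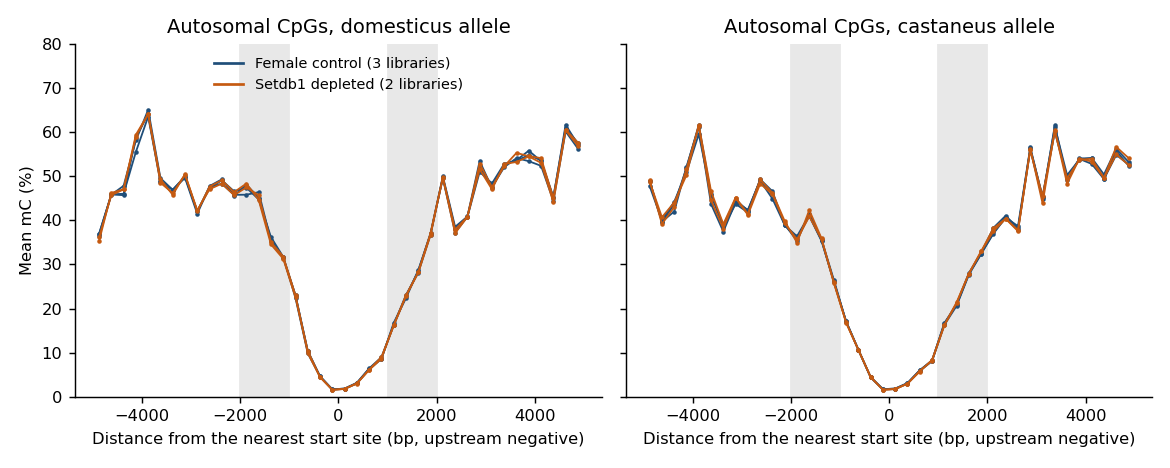
Mean mC in 250-bp bins by distance from the nearest protein-coding start site (x axis in bp, upstream negative), 1 line per library, with the shores shaded grey. From 1000 to 2000 bp downstream mC went from 16.4 to 36.9% on the domesticus and from 16.4 to 32.7% on the castaneus allele, and the lines of the 2 groups lie on each other.

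The rise went on within the shore. In control libraries, downstream mC was 19.1% ± 0.0938 (SD, n = 3) in the inner 500 bp of the shore and 32.1% ± 0.226 in the outer 500 bp on the domesticus allele, and 18.4% ± 0.195 and 29.9% ± 0.153 on the castaneus allele. Upstream it was 33.6% ± 0.250 and 46.2% ± 0.277 (domesticus), and 30.8% ± 0.196 and 39.0% ± 0.165 (castaneus). Both sides and both alleles thus had more mC in the outer part of the shore, although in the finest bins the castaneus upstream level was higher at 1500 to 1750 bp (41.2% in controls) than at 1750 to 2000 bp (35.9%).

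A shore mean hides that single positions were mostly either low or high. Of upstream positions on the domesticus allele, 49.5% had under 20% mC and 25.7% had over 80%, and downstream 68.9% and 15.4%. On the castaneus allele the shares were 53.9% and 23.8% upstream and 70.97% and 14.97% downstream. The core had 96.4% of its positions under 20% on either allele. The median shore position therefore had far less mC than the mean, with 21.2% upstream and 2.74% downstream on the domesticus allele and 10.2% and 2.17% on the castaneus allele. Between 14.1 and 24.8% of positions held 20 to 80% mC. Each call reads a single molecule as methylated or unmethylated, so such a level is a share of molecules in DNA from many cells.

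**Figure D2:**
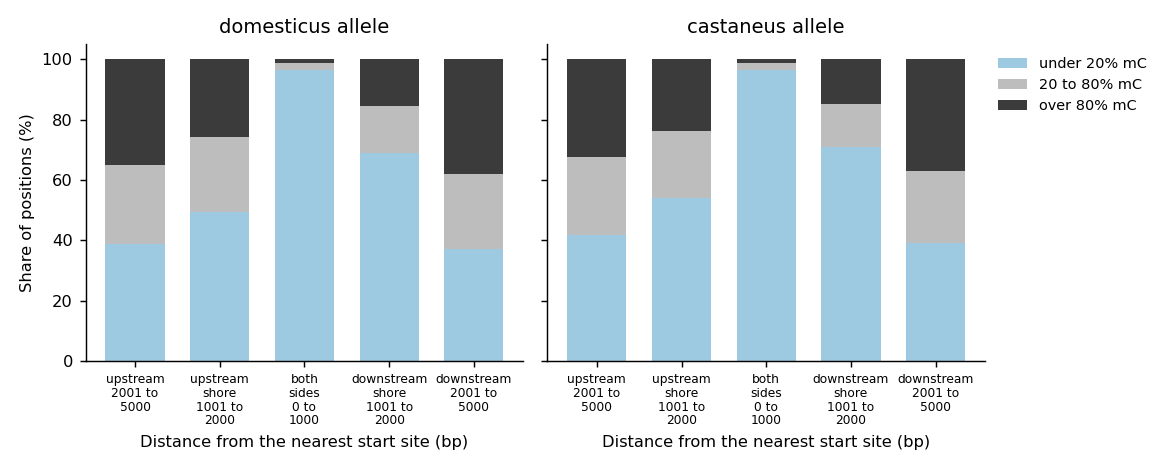
Share of positions (y axis, %) with under 20%, 20 to 80% and over 80% mC, as the mean over 5 libraries, by distance from the start site on each allele. The shores stand between the core, with 96.4% of positions under 20%, and the classes beyond it up to 5000 bp, with 37.3 to 41.7%.

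The level of a shore position went with how near it lay to a CpG island. Islands were found in the reference sequence, and 27.02% of upstream and 52.6% of downstream shore positions lay inside one on the domesticus allele, and 30.9 and 55.6% on the castaneus allele. Inside islands, mean mC over the 5 libraries was 2.70% upstream and 4.11% downstream (domesticus), and 2.26 and 3.86% (castaneus). Within 500 bp of an island it was 15.05 to 20.2%, farther out up to 2000 bp 39.3 to 43.3%, and at over 2000 bp 64.5 to 71.5%, the ranges covering both sides and alleles. At over 5000 bp from a start site means were lower than in the last of these groups, at 58.3 to 63.8%, in a class with 14.1 to 16.1% of its positions inside islands. The number of CpGs within 100 bp on either side gave the same order, from 62.6 to 69.8% mC at 1 to 5 CpGs to 1.56 to 2.46% at over 20.

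**Figure D3:**
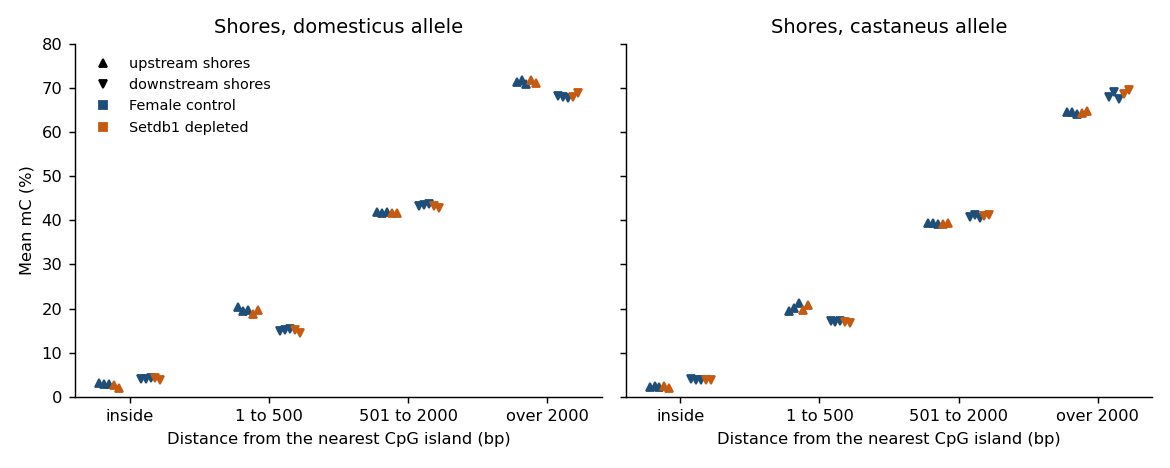
Mean mC of shore positions (y axis, %) by distance from the nearest CpG island (x axis, bp), with 1 triangle per library, pointing up for upstream and down for downstream shores. Levels climb from under 5% inside islands to over 64% beyond 2000 bp on both sides, a range far wider than the distance between the colours of the 2 groups at any step.

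Upstream shores exceeded downstream shores by 14.5 points on the domesticus allele (14.4 to 14.7 over libraries) and by 11.7 points on the castaneus allele (11.6 to 11.8), higher in 5 of 5 libraries, with p = 0.06 in the two-sided exact sign-flip permutation test, its smallest value. The sides also differed in makeup, with a median of 10 CpGs in 201 bp upstream against 14 downstream and fewer upstream positions in islands. Outside islands the excess was 5.79 points (domesticus) and 2.55 points (castaneus), and inside islands upstream shores were lower by 1.41 and 1.60 points on the mean. The excess outside islands did not hold at every distance from an island. Within 500 bp it was 4.56 points (domesticus) and 3.20 points (castaneus). Farther out up to 2000 bp it turned, to -1.58 and -1.57 points, with upstream higher in 0 of 5 libraries on either allele. At over 2000 bp it was +3.35 points (domesticus) and -4.11 points (castaneus). At similar CpG number the excess ran from -0.517 to 7.31 points on the domesticus and from -0.899 to 4.28 points on the castaneus allele. These differences within island and CpG classes are smaller than the pooled one. By feature, coding exons gave 33.9 and 37.3 points and intergenic positions -10.2 and -16.5 points. The intergenic values rest on 30 (domesticus) and 26 (castaneus) downstream positions, against 600 and 671 upstream. The part of the makeup in the pooled difference was not tested beyond such classes.

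Upstream does not mean outside the gene, since many genes have several start sites. Of the upstream shore positions, 29.5% on the domesticus allele and 25.1% on the castaneus lay inside the gene whose start site was nearest, 10.9 and 9.65% lay only in another protein-coding gene, and 59.5 and 65.3% lay in none. In controls, mC was 45.4% ± 0.216 and 51.4% ± 0.0493 (SD, n = 3) inside the own gene, 56.2% ± 0.794 and 58.9% ± 2.12 in another gene, and 31.8% ± 0.214 and 24.0% ± 0.307 in none, domesticus first. Upstream positions in gene bodies were therefore the more methylated ones. Outside islands the same order held, with 61.1 and 68.0% in the own gene, 75.2 and 74.2% in another and 42.8 and 35.7% in none. Downstream shores lay in their own gene for 98.8 and 98.9% of positions, at 23.6 and 22.4% mC. Upstream positions in coding exons had 58.3% ± 0.383 (domesticus) and 63.3% ± 0.776 (castaneus) in controls, against 24.1% ± 0.254 and 25.9% ± 0.211 for downstream positions in coding exons.

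To follow single genes, the positions on 1 side of a gene's start sites were joined into a shore window when there were at least 3 of them, and their calls were summed. This kept 3645 of the 4528 domesticus positions in 528 windows (173 upstream, 355 downstream) and 4020 of the 4950 castaneus positions in 548 (161 and 387). A window had a median of 4 positions upstream and 5 downstream over 51 to 58 bp. It can be wider where a gene has several start sites, and 10 domesticus and 11 castaneus windows spanned over 1000 bp. Of the castaneus windows 330 had under 20% mC and 113 over 80%, and of the domesticus windows 307 and 108. Where the core of the same gene was covered and under 20%, most shores were low too: 48 of 75 upstream and 107 of 152 downstream windows on the domesticus allele, and 48 of 73 and 127 of 181 on the castaneus allele. A core under 20% with a shore over 80% was found in 12 and 23 windows (domesticus) and in 14 and 24 (castaneus).

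The highest upstream windows of the castaneus allele all lay inside their own genes, upstream of an internal start site. They were those of Prex1, an exchange factor for Rac (96.96% mean mC), Llgl2, a cell polarity protein (96.0%), Asl, an enzyme of the urea cycle (95.1%), Wdr81 (94.4%) and Plcb3, a phospholipase C (94.4%). At Prex1, shown above, the libraries had 98.7, 94.8 and 94.8% in controls and 96.4 and 100% in depleted cells, and the core had at most 2.41%. The highest downstream windows were those of Mustn1 (97.6%), Zfp408 (97.3%), the serine protease gene Prss22 (96.95%), the atypical cadherin gene Fat1 (96.6%) and the centrosomal Cep295 (96.5%). At Zfp408 the 6 positions of the run shown above had 100, 96.1 and 97.9% in controls and 95.4 and 96.9% in depleted cells.

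Other shores were close to unmethylated over many positions. Among the lowest with the most calls were, upstream, Bahcc1 (30 positions), the mitotic kinesin gene Kif14 (24), Mtg2, for a GTPase of mitochondrial ribosomes (14), the repressor gene Hic1 (10) and the Iroquois gene Irx5 (18), and downstream Adgrl2 (38), the pro-apoptotic Bcl2l11 (35), Gtpbp3 (21), Zhx2 (24) and Cdkn1a (28), which encodes the cell cycle inhibitor p21. Each had at most 0.290% mean mC on the castaneus allele. Bahcc1 had 0.0573, 0.0635 and 0% in controls and 0.118 and 0% in depleted cells from at least 1545 calls, and 0 of 1545 calls allows up to 0.194%. Hic1 was the only one of the 10 with no position in an island. In between, the 20 positions upstream of Vsnl1, a neuronal calcium sensor gene, had 30.2, 33.7 and 33.6% in controls and 30.7 and 31.8% in depleted cells. The 8 positions upstream of Phpt1, in a coding exon of Ajm1, had 41.1, 46.4 and 37.9% and then 45.1 and 33.7%.

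The shores on the 2 sides of a gene could be compared in 17 genes (domesticus) and 18 (castaneus). The windows on the 2 sides of a gene can belong to different start sites, as they do at Glyctk and Scarf2, so they are not always the flanks of 1 promoter. Both sides were under 20% in 9 and 12 of them and lay within 10 points of each other in 11 and 14. The widest gap among genes with at least 5 positions on each side was at Glyctk, which encodes glycerate kinase, on the castaneus allele, with 0.763% upstream in an island and 81.4% downstream in the coding sequence. Its downstream values were 81.5, 83.7, 82.1, 80.4 and 79.3% and its upstream values at most 1.95%, so that they stood apart in every library. On the domesticus allele, Cbx8, a subunit of Polycomb repressive complex 1, had 12.2% upstream and 67.7% downstream around a core with 0.201%. The phosphatase gene Dusp4 was the other way round on the castaneus allele, with 24.1% upstream and 0.342% downstream, as was Scarf2, with 21.8 and 0.402%.

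Shores of developmental transcription factor genes were low more often than shores at large. The homeobox list had 35 castaneus windows in 31 genes with a median of 2.24% mC, 32 of them under 20% (91.4%) and 0 over 80%, against a median of 6.37% and 60.2% under 20% for all 548 windows. On the domesticus allele it had 33 windows with a median of 3.41%, 28 under 20% (84.8%) and 0 over 80%, against 8.48% and 58.1% for all 528. The list of Forkhead, T-box, Sox and Gata genes had medians of 1.46% in 17 castaneus and 1.68% in 22 domesticus windows, with 16 and 18 under 20%. More of these windows lay in islands. Outside islands, 13 of 15 homeobox windows (castaneus) and 11 of 15 (domesticus) were under 20%. The Forkhead, T-box, Sox and Gata list had 4 of 5 and 5 of 9, and windows at large 34.6% of 309 and 34.9% of 321. These windows outside islands also had more CpGs within 100 bp, with medians of 9.67 and 9.80 (homeobox) and 14 and 11 (the other list). Windows at large had 8.25 and 8.17. These values describe the lists and carry no test.

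Single members show the range. Downstream of Gata6, which specifies endoderm and heart, 50 castaneus positions had 1.84, 2.26 and 2.36% in controls and 1.90 and 1.71% in depleted cells. Downstream of Hoxb9, 26 positions had 15.3, 13.1 and 8.81%, then 10.8 and 14.6%, so an island shore of a Hox gene could also hold some mC. The clustered protocadherins, adhesion molecules of which neurons each express a few, were the opposite: their 6 windows per allele, all downstream and in coding exons, had medians of 55.4% (37.6 to 81.5%, castaneus) and 50.8% (10.7 to 76.9%, domesticus). Pcdhga12 had 54.95, 43.3 and 42.6% in controls and 48.6 and 44.7% in depleted cells, inside an island.

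The remaining lists held few windows. Among fibroblast and matrix genes, Ltbp3 had 5.01% (domesticus) and 0.949% (castaneus), Lox 18.04 and 20.3%, and Thy1, a fibroblast surface marker, 60.3 and 66.8%. Of the epithelial genes, Grhl2 had 4.58 and 10.5% and Krt8 30.2% (castaneus). Germline genes were high downstream, with the piRNA pathway gene Piwil4 at 89.9 and 89.2% and Tdrd6, for a tudor protein of spermatids, at 62.0 and 74.1%. Endothelial genes had 0.769 and 0.772% at Sox17 and 41.8% at Sox7 (domesticus), and blood genes 0.811 and 0.152% at Runx1 and 33.0 and 22.8% at Runx3. Neural genes had 1.05 and 0.976% at Gad2 and 0.627% at Elavl3 (castaneus), the muscle gene Mylpf 24.7% (castaneus) in a UTR exon of Sept1, and the imprinted Dio3 18.5% (domesticus). Levels on the 2 alleles of a gene come partly from different positions. The domesticus window of Runx3 ran over chr4:135119305-135150740, and the castaneus window only over chr4:135150675-135150741. That of Ltbp3 ran over chr19:5742159-5757200 (domesticus) and chr19:5742160-5742448 (castaneus).

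Housekeeping and pluripotency genes also spread widely. Upstream of Actg1, for gamma actin, the castaneus allele had 0% in all 5 libraries, and 0 of 567 calls in the shallowest allows up to 0.529%. Upstream of Eef2 it had 3.29% (castaneus), while the downstream shore of Snrpd3 had 91.9 and 87.7%. In the pluripotency list, Sall4 had 80.6%, Tbx3 40.9% and Dppa3 43.0% on the domesticus allele, Esrrb 16.03 and 10.8%, and Prdm14 12.5 and 16.1%. Of the DNA and H3K9 methylation list, Tet3 had 40.1% (domesticus) and Ehmt2, which dimethylates H3K9, 93.7% (castaneus) upstream of an internal start site. Zfp genes ran from 0.233 to 97.3% over 7 windows (domesticus) and from 0.0729 to 97.3% over 6 (castaneus), and the olfactory receptor gene Olfr516 had 63.5 and 82.3%. No window of any list passed the adjusted threshold of the depletion test described next.

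The design asks whether Setdb1 depletion goes with a difference in mC. In none of the 4 classes, upstream and downstream on each allele, did the test separate the groups. The difference, depleted minus control, was -0.192 points upstream and -0.105 points downstream on the domesticus allele, and -0.00427 and +0.120 points on the castaneus allele. With calls pooled over positions, both upstream differences turned, to +0.372 (domesticus) and +0.158 points (castaneus), so no direction is read from them. An exact permutation of the labels, two-sided, gave p = 0.4, 0.5, 1 and 0.4 in that order, where 3 and 2 libraries allow no p under 0.1. The control libraries alone had SDs of 0.0631 to 0.172 points, so these differences are of the size of the spread between replicates. In positions at 20 to 80% mC, where a shift would be widest, the differences were -0.456 and +0.0368 points (domesticus) and -0.0580 and +1.39 points (castaneus), upstream first, and the last of these had p = 0.2 in the same exact test.

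Parts of the shores were compared in the same way. Some had groups that did not overlap and the smallest p of 0.1, not adjusted for the number of parts. A share of 0.1 of the 10 labellings reaches this p in any part, so it sets no part apart. Upstream on the domesticus allele, depleted libraries were lower inside islands, with 2.66 and 1.98% against 3.03, 2.88 and 2.95% (-0.634 points), in the inner 500 bp of the shore (-0.469), in introns (-0.633) and outside repeats (-0.270). Depleted libraries were also lower inside the own gene on the domesticus allele, upstream (-0.413 points) and, outside islands, downstream (-0.0829). Upstream on the castaneus allele they were lower at over 20 CpGs within 100 bp (-0.465 points). Downstream on that allele they were higher at 1 to 5 CpGs (+0.952 points), in repeats (+0.861) and in introns (+0.513). All these differences were under 1 point, and the parts share positions with each other.

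Shore windows gave no call either. None of 528 domesticus and none of 548 castaneus windows had an adjusted p under 0.05 in the quasi-binomial model of the calls, and the backgrounds over all autosomal windows were 0.0574 and 0.0475%. At an unadjusted p under 0.05 there were 25 domesticus windows (background 4.77%), 16 lower (background 2.54%) and 9 higher (background 2.23%), and 27 castaneus windows (background 4.24%), 13 lower (background 2.29%) and 14 higher (background 1.95%). The members' shares of 4.73 and 4.93% were near the background. Both depleted libraries lay below all controls in 49 windows (background 8.82%) and above them in 59 (background 9.09%) on the domesticus allele, and in 51 (background 8.35%) and 61 (background 9.55%) on the castaneus allele. Among single positions, 0 of 4528 (background 0.0239%) and 0 of 4950 (background 0.00229%) passed the adjusted threshold, with 113 (background 2.3%) and 144 (background 2.33%) at an unadjusted p under 0.05. On log ratios limma called 0 shore windows on either allele, and also 0 of all 12205 (domesticus) and 12628 (castaneus) autosomal windows. This 0 therefore does not set shores apart. At an unadjusted p under 0.05 limma had 29 windows (background 4.93%) on the domesticus and 30 (background 5.16%) on the castaneus allele. Fisher's exact test on pooled calls, which ignores the spread between libraries, called 74 windows (background 13.3%) and 129 positions (background 2.78%) on the domesticus allele, and 78 windows (background 14%) and 159 positions (background 2.65%) on the castaneus allele. The median absolute difference of a window was 1.07 to 1.64 points.

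**Figure D4:**
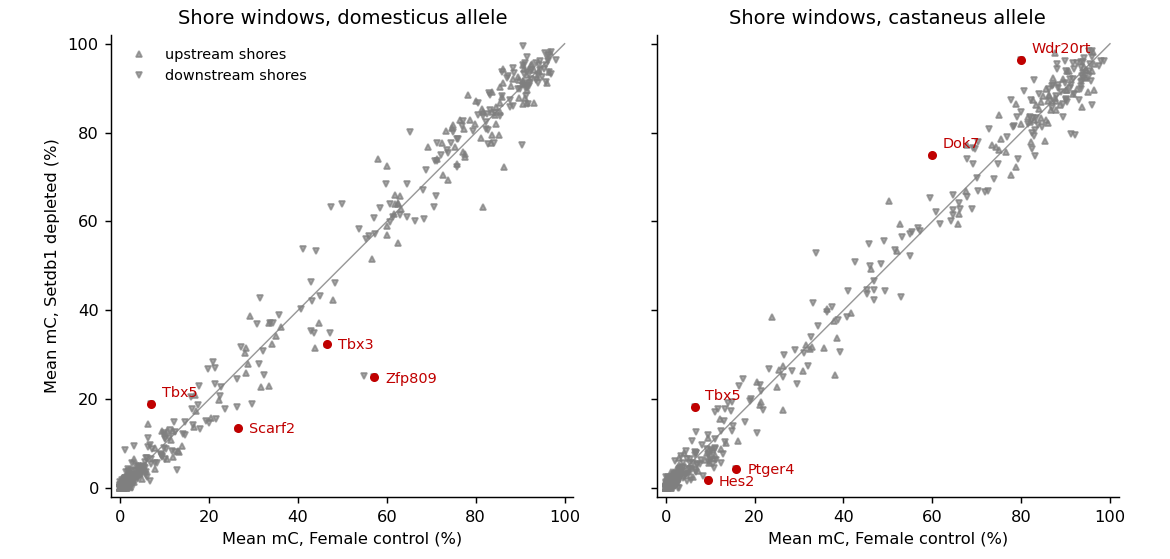
Mean mC of each shore window in Setdb1 depleted (y axis, %) against Female control libraries (x axis, %), with the line of equal levels and some of the windows with the smallest p named in red. Most windows lie along the line, and Zfp809 (24.9% in depleted against 57.2% in control libraries) is farthest below it among those named.

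The smallest unadjusted p among domesticus shores was downstream of Zfp809, in an intron 1057 to 1144 bp from the start site. Zfp809 is a KRAB zinc finger protein that binds the primer binding site of some retroviruses and silences them. Controls had 50, 57.9 and 63.6% mC and depleted libraries 28.7 and 21.2%, so both depleted libraries lay well below all controls, from 140 to 216 calls a library. Depleted minus control was -32.2 points, and the adjusted p of 0.0849 in the quasi-binomial model did not pass. All 5 positions of the run shown above were lower in the depleted mean, by 11.7 and 15.7 points for the 2 cytosines read on the plus strand and by 41.3 to 46.9 points for the 3 on the minus strand. At both plus-strand cytosines the groups overlapped, with depleted replicate 2 at 51.6% and control replicate 1 at 43.2 and 45.9%. Only at the minus-strand cytosines did the groups stand apart. At the CpG read on both strands, depleted replicate 2 had 51.6% on the plus and 5.71% on the minus strand. Neighbouring positions share reads, so they are not separate observations, and a position had only 21 to 56 calls. The adjusted p was 0.0336 without control replicate 1 and 0.0365 with the replicate block, 0.138 and 0.175 without control replicates 2 and 3, and 0.661 in limma. Without depleted replicate 1 or 2 it was 0.438 and 1, in fits with 1 depleted library that is assumed to vary as the controls do. The fit with the replicate block gave all domesticus windows a common dispersion, so this window's own spread between libraries did not enter its p. Over the alternatives the difference ran from -36.0 to -28.5 points. No shore window of Zfp809 passed the call minimum on the castaneus allele.

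The next was Scarf2, a scavenger receptor gene, in its own coding exon 1380 to 1432 bp upstream of an internal start site. Controls had 26.99, 23.6 and 28.8% and depleted libraries 15.2 and 12.1% on the domesticus allele, which is -12.8 points (adjusted p = 0.221), and all 10 positions were lower in the depleted mean, by 9.02 to 28.8 points. On the castaneus allele, 5 of these positions had 19.1, 18.5 and 23.9% and then 21.5 and 26.1%, a difference of +3.36 points. The 2 alleles therefore lay on opposite sides of the controls' mean, and that difference between alleles was not tested.

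On the castaneus allele the smallest p was downstream of Tbx5, the T-box gene of heart and forelimb, in an intron 1273 to 1307 bp from the start site. Controls had 3.35, 10.5 and 5.75% mC and depleted libraries 20.1 and 16.5%, so the groups did not overlap, from 657 to 1043 calls. Depleted minus control was +11.7 points (adjusted p = 0.136), and all 10 positions were higher in the depleted mean, by 0.808 to 34.8 points. On the domesticus allele the same place had 3.41, 4.65 and 12.7% in controls and 14.4 and 23.5% in depleted libraries, a difference of +12.01 points with an unadjusted p of 0.0199. The castaneus window had an adjusted p of 0.00876 without control replicate 2, its highest control, and of 0.1296 to 0.874 under the other alternatives, apart from Fisher's exact test, which takes no account of the spread between libraries.

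None of the other windows among the 8 with the smallest p on each allele passed. On the domesticus allele the downstream shore of Epha2, an ephrin receptor gene, had 0.376, 2.19 and 0.882% and then 10.3 and 6.84%, against at most 1.13% in any library on the castaneus allele. Ddah2 downstream (-13.0 points), Tbx3 upstream, in an intron of Tbx3os1 (-14.1), Tbc1d24 upstream, in Ntn3 (-3.44), the Nodal inhibitor gene Lefty2 downstream (-5.81) and Dppa3 downstream (-29.6, from 63 to 150 calls) completed the 8, with adjusted p from 0.503 to 0.861. Dppa3 had 52.1, 34.6 and 77.8% in controls and 30.7 and 19.7% in depleted libraries, and without control replicate 3 its difference was -18.2 points. Tbx3 and Dppa3 are on the pluripotency list, where 2 of 5 domesticus windows had an unadjusted p under 0.05 (background 4.77%). Both were lower (background 2.54%), and 0 of 2 castaneus windows had such a p (background 4.24%). These 2 windows were named from the same test, so the count adds no support. Other lists held windows with an unadjusted p under 0.05 too. Among 22 domesticus windows of Forkhead, T-box, Sox and Gata genes, 2 were lower (background 2.54%) and 1 higher (background 2.23%). Tbx3 is also a T-box gene, so the 2 lists are not separate counts. On the castaneus allele the other windows of the 8 began with Hes2, a repressor gene of the Hes family (-7.78 points). Next came Wdr20rt (+16.4), a retrocopy of Wdr20 whose reads may be shared with its parent. Cyp1b1, for a cytochrome P450 (+4.16), and the anion exchanger gene Slc26a6 (-9.82) followed. The last were Dok7, which acts at the neuromuscular junction (+14.96), Hoxb2 (-2.88) and Ptger4, a prostaglandin E2 receptor gene (-11.5). Over these castaneus windows the adjusted p ran from 0.627 to 1. At Hes2, shown above, controls had 16.4, 4.35 and 7.86% and depleted libraries 1.45 and 2.06%, and without control replicate 1 the difference was -4.35 points.

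The 2 alleles of a library are separate molecules, and 333 windows were covered on both. An unadjusted p under 0.05 was found on both alleles in 4 of them (background 0.652% of all autosomal windows covered on both), of 16 windows per allele: Tbx5, Dok7, Cyp1b1 and Tbc1d24, each with the same direction on both. The groups did not overlap, in the same direction on both alleles, in 8 windows (background 2.48%), and in opposite directions in 5 (background 1.41%). Upstream of Dok7 the domesticus allele had 49.8, 67.3 and 62.7% in controls and 64.2 and 80.6% in depleted libraries, and the castaneus allele 58.5, 64.1 and 57.0% and then 67.9 and 81.8%. The groups overlapped on the first and not on the second allele, and without depleted replicate 2 the castaneus difference of +14.96 points was +7.98. Downstream of Cyp1b1 the differences were +6.30 points (domesticus) and +4.16 points (castaneus), and upstream of Tbc1d24 -3.44 and -3.46 points. The alleles come from the same cells and library, so they are no further replicates of the depletion.

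The alleles themselves had nearly equal shore levels. At the 563 upstream positions covered on both, the domesticus minus castaneus difference was +0.346 points on average (-0.314 to 0.836 over libraries), and at 1624 downstream positions -0.305 points (-0.618 to 0.0677). Both turned, to -0.405 and +0.339 points, with calls pooled over positions. Over 279 shore windows with shared positions the median absolute difference was 0.857 points, 234 lay under 5 points and 15 reached 10 points. Both alleles were under 20% in 183 windows and over 80% in 44, and 0 windows had one allele under 20% and the other over 80%. No shore window covered here thus had the contrast measured at the Zrsr1 island.

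Single windows did differ between the alleles in every library, though few passed a test. None of the 279 reached both an adjusted p under 0.05 and 10 points in limma on log ratios (background 0.55%), with 43 at an unadjusted p under 0.05 (background 13.1%). Past the adjusted p alone were 2 windows (background 0.695%), and 0 or 1 when any 1 library was left out. They were Foxp2 upstream, with a mean of 7.95% (domesticus) against 1.12% (castaneus) and an adjusted p of 0.0102, and Fst downstream, with 0.111 against 2.27% and 0.0131. A quasi-binomial model with the library as a block, added after the data were seen, gave Foxp2 an adjusted p of 8.42e-05 and Fst one of 0.275, which did not pass. With the 10 points it called 12 windows (background 3.51%), 5 higher on the domesticus allele and 7 on the castaneus, and 12 windows had 10 points or more in the same direction in all 5 libraries (background 4.19%). These shares are near the background of all windows.

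Tdrd6 downstream had the most positions of these. At 13 shared positions the domesticus allele had 55.2, 64.2 and 62.6% in controls and 62.5 and 65.6% in depleted libraries, and the castaneus allele 82.3, 83.0, 84.7, 79.8 and 82.0%. The alleles stood apart by 20.4 points on average and did not overlap, with an adjusted p of 0.0723 in limma and of 6.21e-06 in the added model. At C1ql3, in an island, the domesticus allele was the higher one, with 26.9, 22.3, 21.1, 20.7 and 11.1% against 9.33, 9.32, 14.8, 10.5 and 7.11%. The widest gaps in the other direction were at Grp, for gastrin-releasing peptide (29.0 against 58.1%), and upstream of Atp6v1g2, a proton pump subunit gene (64.4 against 87.0%). Pdx1, the pancreatic homeobox gene, had 18.1 against 6.57%, and Nkx6-2 13.5 against 27.1%, so homeobox shores were found on both sides of the comparison. Whether strain or parental origin sets such a difference cannot be told apart in a cross made in 1 direction.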

How the data were processed

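The authors aligned the eRRBS reads to mm10 with Bismark, after trimming with Trim Galore and base calling with CASAVA 1.4, and split them by strain variants with SNPsplit into a domesticus and a castaneus file per library. The deposited files hold 1 methylation call per read and CpG, a letter for methylated or unmethylated and no score or other normalised value. Removal of duplicate reads is not given in the sources used here. Reads marked by the sequencer's filter (5.34 to 5.66% of calls) were kept.

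Calls were counted per position, and mC is methylated calls in percent of all calls. Positions with more than 20 calls in every library were placed by the nearest of 52099 autosomal start sites of protein-coding transcripts (GENCODE M21). CpG islands were rebuilt from GRCm38 (score 17 per CpG, at least 200 bp, GC share 0.5, observed to expected CpG 0.6). Class means were compared by exact permutation over libraries. Windows and single positions were tested over all autosomal features with a quasi-binomial logistic model with a moderated dispersion, and alleles with limma 3.58.1 on log2 ratios of calls plus 0.5, paired by library, with Benjamini-Hochberg adjustment in R 4.3.3 (threshold 0.05). Counting used Python 3.11.15, numpy 2.4.6 and pandas 2.3.3. The scripts were tested on simulated data. The median shore position had 48 to 57 calls per library, so single positions are imprecise, and limits at 0 (3 calls) cover counting error only. Windows named are those with the smallest p, the highest, lowest and most intermediate mC, the widest gap between the sides of a gene, the listed genes and the allele differences. A few more were named after their values were seen. One listed gene is not reported here. The regions and gene lists were chosen with earlier results of these data known. The sources used here do not say that libraries came from separate embryos, so p-values measure the spread between libraries, which may be technical. All libraries shared 1 flowcell, so no batch was compared. Alternatives were other call minimums, tools, start sites and positions per window, leaving out each library, and the replicate block.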

Additional observations from a re-analysis of the deposited data

Results flagged for a closer look

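In 2 shore windows both depleted libraries lay on one side of all controls on one allele and on the other side on the other allele. Downstream of Hes2 the domesticus allele had 4.47, 4.38 and 3.39% mC in controls and 4.73 and 5.32% in depleted libraries (+0.949 points), while the castaneus allele had 16.4, 4.35 and 7.86% and then 1.45 and 2.06% (-7.78 points). The domesticus window held 13 positions and the castaneus window 6. Downstream of Mustn1 the domesticus allele had 95.03, 92.6 and 95.8% and then 96.4 and 95.9% (+1.66 points), and the castaneus allele 99.4, 99.3 and 97.02% and then 95.3 and 96.8% (-2.52 points), over 3 positions. The difference between the alleles was not tested in either window. They were picked among the named windows, and of 333 shore windows covered on both alleles 5 had groups apart in opposite directions (1.41% of all autosomal windows covered on both did) and 8 in the same direction (2.48%). Groups of 3 and 2 libraries are too small for a test of single outlying libraries.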

How the results depend on the processing

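Of 186 alternatives to the comparisons and counts, 156 kept the direction or the count, 18 reversed a direction and 12 raised a count from 0. All reversals were of differences under 0.5 points. With calls pooled over positions, depleted minus control was 0.372 (domesticus upstream) and 0.158 (castaneus upstream), the domesticus difference of shores was 0.298 above that of positions beyond them up to 5000 bp and 0.0516 above that of the core, and domesticus minus castaneus was -0.405 upstream and 0.339 downstream. With more than 40 calls, the values were 0.0440 (castaneus upstream), -0.0347 (castaneus downstream) and 0.129 (domesticus shores against positions up to 5000 bp). With the start sites of all transcripts they were 0.114 (castaneus upstream) and 0.0106 (domesticus minus castaneus, downstream). The cause was not tested.

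Leaving out 1 library each, depleted minus control ran from -0.378 to -0.00567 (domesticus upstream), -0.190 to -0.0198 (domesticus downstream), -0.106 to 0.0979 (castaneus upstream, above 0 without control replicate 1, 0.00264, control replicate 2, 0.0551, or depleted replicate 1) and 0.0246 to 0.192 (castaneus downstream). Against positions up to 5000 bp, shores ran from -0.445 to 0.219 (domesticus, 0.0327 without control replicate 3) and -0.0950 to 0.336 (castaneus), and against the core from -0.199 to 0.0853 (domesticus). Upstream minus downstream stayed at 14.5 to 14.6 and 11.7 points.

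Counts past the threshold ran from 0 to 1 when 1 control library was left out, for windows and positions on each allele. Over all autosomal windows these fits called 8 to 16 of 12205 (domesticus) and 7 to 11 of 12628 (castaneus). Over all positions they called 34 to 57 of 125501 and 4 to 18 of 130960. Counts of fits with 1 depleted library left are not listed here, though they are among the alternatives above. The replicate block called 1 domesticus shore window (Zfp809) and 0 castaneus ones, with 33 and 16 over all autosomal windows. On the domesticus allele that fit gave all windows a common dispersion and did not use the spread of each window. Fisher's exact test on pooled calls, which ignores the spread between libraries, called 74 and 78 windows (13.3 and 14% of all autosomal windows) and 129 and 159 positions (2.78 and 2.65% of all), domesticus first. The model with the library as a block called 12 windows between the alleles against 0 in limma. Of 696 alternatives for named windows 630 kept their direction and their side of the threshold, 29 passed it and 37 reversed, the last in windows that did not pass.

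Leaving out 1 library each, the reversing castaneus windows upstream ran from -2.22 to 0.711 points (Llgl2), -2.76 to 1.96 (Wdr81), -1.30 to 2.78 (Plcb3), -0.0403 to 0.0773 (Bahcc1), -0.134 to 0.0135 (Hic1), -0.111 to 0.0849 (Irx5), -8.04 to 3.37 (Phpt1), -4.57 to 0.0741 (Dusp4) and -5.50 to 1.85 (Nkx6-1). Downstream they ran from -0.361 to 0.0607 (Gtpbp3), -0.105 to 0.270 (Zhx2), -0.0204 to 0.50 (Cdkn1a), -2.50 to 3.68 (Pcdhga12), -0.223 to 0.268 (Dusp4) and -0.156 to 0.231 (Scarf2). On the domesticus allele they ran from -4.80 to 2.65 (Cbx8 downstream), -0.589 to 0.0986 (Scarf2 downstream), -10.7 to 1.26 (Cdh11 upstream), -0.138 to 0.0123 (Cdh11 downstream) and -4.68 to 1.89 (Csmd2 downstream). With more than 40 calls, values were 0.392 (Irx5), -0.0115 (Adgrl2 downstream, castaneus), -0.0758 (Cdkn1a), 0.00505 (Scarf2, domesticus) and 0.146 (Cdh11 downstream). With more than 10 calls they were 0.394 (Llgl2) and 0.982 (Csmd2 upstream, domesticus), and without filter-marked reads -0.00494 (Dusp4 downstream).

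Groups share 2 replicate numbers, and deviations of same-numbered libraries correlated at -0.0118 to 0.0935. The deviations of the 2 depleted libraries from their mean mirror each other by construction. This check therefore cannot tell whether the numbers pair the libraries. With the replicate block the mean differences were -0.260, -0.0686, -0.0705 and 0.0246 points in the order given above. Single positions at 20 to 80% mC had a median SD over libraries of 10.0 to 10.3 points. Counting alone gives 6.54 to 6.65, so their spread was wider than depth alone gives.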
